A study of Mus musculus with 17 samples.

Results

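Levels of 10 genes of MHC class I antigen presentation were followed in the mouse myoblast line C2C12, whose cells fuse into skeletal muscle fibres when driven to differentiate. The genes were chosen by symbol: H2-K1, H2-D1, B2m, Tap1, Tap2, Tapbp, Nlrc5, Psmb8, Psmb9 and Psmb10. All 10 had a row among the 15062 genes of the deposited count table. The choice was made with results on these libraries known, among them the high levels of H2-K1 and Nlrc5 in the SRF-PDGFRB line and their low levels in the SRF-ICA1L and SRF-RELA lines. Values from the SRF-PDGFRB line, and from SRF-ICA1L and SRF-RELA against the empty vector, are therefore descriptions. Their counts of calls are printed beside the share of all genes called and support nothing. The other comparisons share pMSCV, SRF, SRF-ICA1L or SRF-RELA libraries with those contrasts, so their tests are not independent of the choice of members.

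All groups were C2C12 myoblasts grown in medium with fetal bovine serum, and the groups differed in the construct expressed. The groups were pMSCV (the empty vector), SRF, SRF-RELA, SRF-ICA1L and SRF-FOXO1 with 3 libraries each, and SRF-PDGFRB with 2, giving 17 libraries of RNA sequencing. SRF (serum response factor) binds DNA and regulates transcription, and the 4 fusions are named for SRF and a partner gene. The study asks how the fusions found in soft tissue tumours of muscle-like type act, by comparing the lines. The labels do not say whether a line was a pool or a clone, nor whether replicates were separate cultures, so p-values measure the spread between these libraries, which may be technical.

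Library totals ran from 20901442 to 23543734 counts. Srf stood at 678 to 1670 CPM (counts scaled to a common library size) in the SRF libraries, at 66.6 to 93.8 in pMSCV, at 71.8 to 105 in SRF-FOXO1 and at 70.5 to 81.4 in SRF-PDGFRB. No construct sequence was used here, and Pdgfrb was at 196 to 247 CPM in SRF-PDGFRB against 103 to 345 in pMSCV, so these values do not check the labels of those fusion lines. All 7 listed myoblast and muscle markers had rows. Their summed level was 1500 to 1770 CPM in pMSCV and 228 to 297 in SRF-FOXO1, and it was 231 in SRF-PDGFRB replicate 1 but 2070 in replicate 2. Of 13 immune cell markers, 4 had rows (Cd68, Lyz2, Csf1r and Cd79a), with a summed level of 2.58 to 13.2 CPM, and the pan-leukocyte gene Ptprc had none.

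MHC class I molecules show peptides from inside a cell to cytotoxic T cells. The proteasome cuts proteins into peptides, and in an interferon response the catalytic subunits encoded by Psmb8, Psmb9 and Psmb10 replace those encoded by Psmb5, Psmb6 and Psmb7. Tap1 and Tap2 encode the transporter that carries the peptides into the endoplasmic reticulum, where tapasin (Tapbp) helps load them onto a heavy chain (H2-K1 or H2-D1) paired with beta-2-microglobulin (B2m), and NLRC5 is a transactivator that acts at class I promoters. Skeletal muscle cells are known for low class I levels that rise in inflammation.

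Most of the members lie in the MHC region. Positions are those of GENCODE annotation on GRCm38, the build that the submitters' processing notes name. On chromosome 17 lie Tapbp (ENSMUSG00000024308, chr17:33915899-33929292, plus strand), H2-K1 (ENSMUSG00000061232, chr17:33996017-34000347, minus strand) and H2-D1 (ENSMUSG00000073411, chr17:35262730-35267499, plus strand). Between H2-K1 and H2-D1 stand Psmb9 (ENSMUSG00000096727, chr17:34181987-34187764, minus strand), Tap1 (ENSMUSG00000037321, chr17:34187553-34197225, plus strand), Psmb8 (ENSMUSG00000024338, chr17:34197721-34201454, plus strand) and Tap2 (ENSMUSG00000024339, chr17:34203527-34216321, plus strand). B2m lies elsewhere (ENSMUSG00000060802, chr2:122147686-122153083, plus strand), as do Nlrc5 (ENSMUSG00000074151, chr8:94434356-94527272, plus strand) and Psmb10 (ENSMUSG00000031897, chr8:105935735-105938444, minus strand). Psmb9 and Tap1 overlap at their starts on opposite strands, and whether counting used the strand is not given in the sources used here.

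The promoters of the heavy chains and of B2m share an arrangement of short motifs, shown because these 3 genes make up the class I molecule itself. The sequences are from RefSeq on GRCm38.p6, and 8 of the 10 members had an entry there; Tap2 and Nlrc5 had none. In the H2-K1 window (chr17:34000354-34000463, minus strand) the capitals mark a kappaB palindrome, an interferon-stimulated response element, a TGACG motif and an inverted CCAAT box. In the B2m window (chr2:122147543-122147643, plus strand) they mark an interferon-stimulated response element, TGACG and an inverted CCAAT box.
H2-K1: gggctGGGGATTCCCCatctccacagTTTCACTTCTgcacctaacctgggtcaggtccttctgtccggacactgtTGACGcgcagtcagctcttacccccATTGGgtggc
B2m: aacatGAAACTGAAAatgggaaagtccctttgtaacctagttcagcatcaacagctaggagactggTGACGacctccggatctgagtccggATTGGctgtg

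TGACG and ATTGG stood 20 bases apart in each of the 3 genes. The pairs are printed to show the equal spacing, with the motifs in capitals. They lie at chr17:34000359-34000388 (minus strand) for H2-K1, at chr17:35262993-35263022 (plus strand) for H2-D1 and at chr2:122147609-122147638 (plus strand) for B2m. The H2-D1 pair precedes the RefSeq start but overlaps a GENCODE exon of H2-D1, whose annotated start lies further upstream.
H2-K1 pair: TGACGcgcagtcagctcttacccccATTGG
H2-D1 pair: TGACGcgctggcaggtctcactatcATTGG
B2m pair: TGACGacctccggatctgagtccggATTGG

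Searched on both strands in the 250 bases before each start, TGACG and ATTGG at that spacing were found in 30 of 32851 promoters (0.0913%). That spacing was read from the members themselves, and any spacing of 10 to 30 bases was found in 211 promoters (0.642%). The kappaB palindrome, searched as GGGG and CCCC with 3 bases between, was found in H2-K1 and H2-D1 and in 0.874% of all promoters. The response element in the form of TTTC and TTCT with 2 bases between was found in the same 2 members and in 2.44%. In the form of TTTC and TTTC with 2 bases between it was found in B2m, where it reads on the opposite strand, and in 2.98%. The gamma-activated site, TTC and GAA with 3 bases between, was found in Psmb8 and in 7.02%. The NF-kappaB consensus was found in H2-K1, H2-D1 and B2m and in 7.25%. It overlaps the palindrome in H2-K1 and H2-D1, and B2m has no palindrome in this window. CCAAT alone was found in 6 members and 33.8% of promoters, and TGACG alone in 5 members and 17.8%. Tap1 and Psmb9 enter both counts through the same sites, since their RefSeq starts lie 226 bases apart on opposite strands. The SRF-binding CArG motif was found in 1.47% of promoters and in none of the 8 members with an entry, which says only that its letters are not in this window. Across the 110 bases, H2-K1 and H2-D1 were identical at 99. A match is a description of the letters and not a binding site.

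Levels between genes were compared as CPM per kilobase of exon, averaged over the 17 libraries. B2m led with 388, and Tapbp (23.1), H2-D1 (20.7) and H2-K1 (14.2) came next. The order of these 3 differed between lines: in pMSCV and SRF-PDGFRB the mean of Tapbp (19.1 and 21.8) lay below those of both heavy chains. Psmb10 (4.80), Tap2 (3.55) and Tap1 (1.02) were lower. Nlrc5 (0.447), Psmb8 (0.286) and Psmb9 (0.209) were the lowest, and Psmb8 and Psmb9 had counts near 0 in many libraries. Of the 50-base stretches of each gene's transcripts, 23.2% for Tapbp, 12.8% for H2-D1, 11.9% for Psmb8, 11.6% for Tap2 and 9.63% for H2-K1 also occurred in another gene, so reads there could be lost or split. The H2 genes are highly polymorphic, and C2C12 derives from another mouse strain than the reference genome. How far this lowers their counts was not tested.

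**Figure D1:**
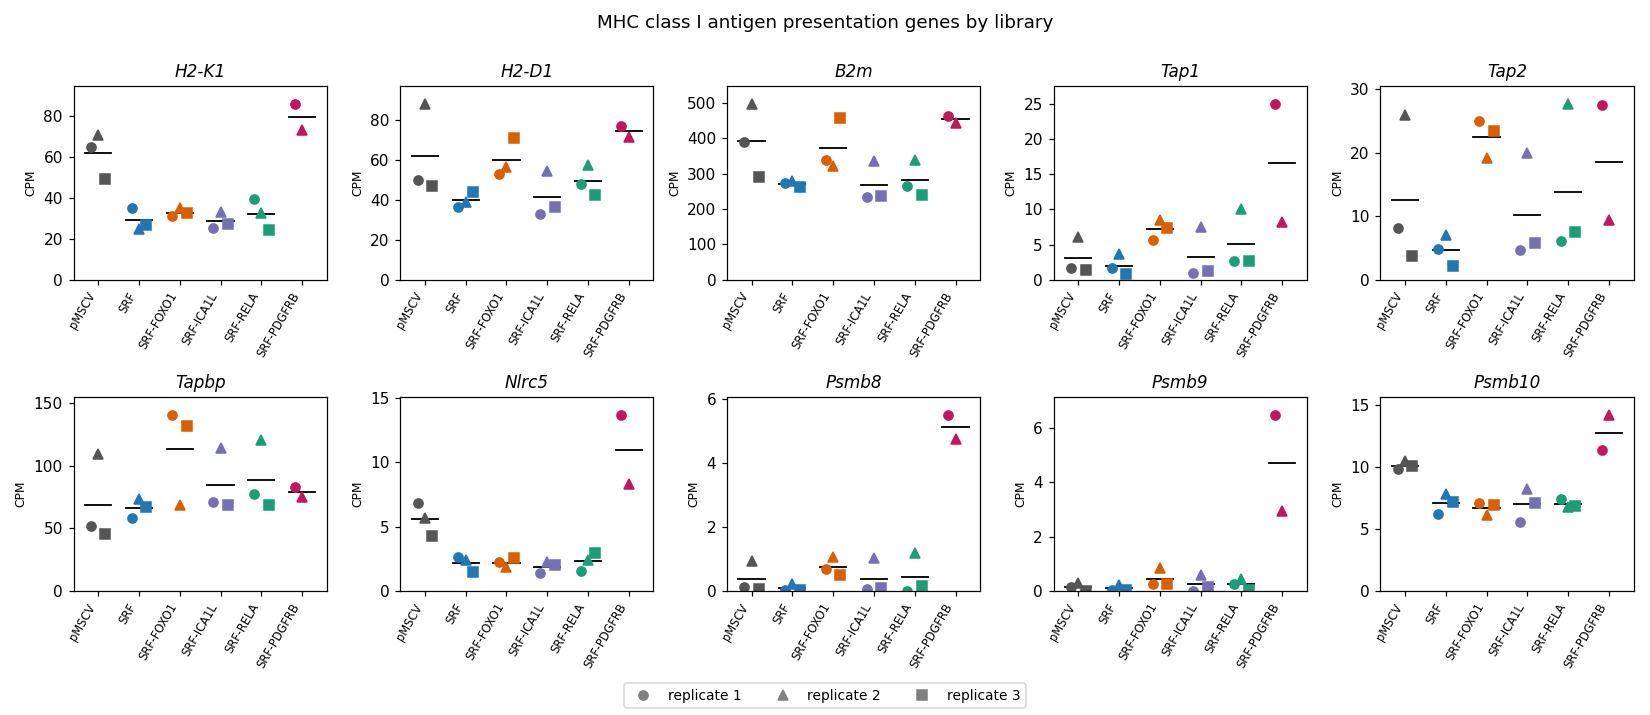
Level of each of the 10 genes in all 17 libraries, in CPM on linear axes that start at 0, by line (x axis); marker shapes give the replicate number and each horizontal bar is the mean of the line. H2-K1, Nlrc5 and Psmb10 separate the lines, with pMSCV and SRF-PDGFRB high, whereas within each of SRF, SRF-ICA1L, SRF-RELA and pMSCV the highest library for Tap1, Tap2 and Psmb8 is replicate 2.

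The heavy chain gene H2-K1 was high in pMSCV and lower in 4 of the 5 other lines. It stood at 64.9, 70.9 and 49.2 CPM in pMSCV replicates 1, 2 and 3. SRF stood at 35.2, 24.9 and 26.8, SRF-FOXO1 at 30.9, 34.9 and 32.6, SRF-ICA1L at 25.2, 33.2 and 27.0, and SRF-RELA at 39.2, 32.7 and 24.2 CPM. The 2 SRF-PDGFRB libraries were at 86.0 and 73.1 CPM, above every other library. All 12 libraries of these 4 lines (SRF and the FOXO1, ICA1L and RELA fusions) lay below the lowest pMSCV library. In bulk RNA, fewer cells with the transcript and less transcript per cell cannot be told apart.

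Nlrc5, the class I transactivator, divided the lines in the same way at a far lower level. It stood at 6.87, 5.69 and 4.30 CPM in pMSCV and at 13.7 and 8.32 CPM in SRF-PDGFRB. The 12 libraries of the other 4 lines ran from 1.40 to 2.94 CPM, on 29 to 63 counts each. The group means of those lines were 2.17 ± 0.639 CPM for SRF, 2.21 ± 0.36 for SRF-FOXO1, 1.88 ± 0.434 for SRF-ICA1L and 2.29 ± 0.689 for SRF-RELA (SD, n = 3 each), and the libraries of these lines overlapped.

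Psmb10, the immunoproteasome subunit with the highest level of the 3, was at 9.82, 10.4 and 10.0 CPM in pMSCV. In the 12 libraries of the same 4 lines it ran from 5.59 to 8.26 CPM. SRF-PDGFRB stood at 11.3 and 14.2 CPM, above the pMSCV libraries. H2-K1, Nlrc5 and Psmb10 were the 3 members of 10 with all 12 libraries below the 3 of pMSCV. Over all genes, 1.56% had that order. These 4 lines were put together after the values were seen, so this share is a description.

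H2-D1, the other classical heavy chain, followed the lines less closely. It was at 50.2, 88.3 and 47.0 CPM in pMSCV and at 36.7, 39.1 and 44.0 in SRF. SRF-FOXO1 was at 52.8, 56.5 and 71.0, SRF-ICA1L at 33.0, 54.5 and 36.3, SRF-RELA at 47.8, 57.8 and 42.5, and SRF-PDGFRB at 77.1 and 71.7 CPM. Only SRF lay wholly below pMSCV, and pMSCV replicate 2 was the highest of the 17 libraries.

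B2m, the chain shared by all class I molecules, was at 389, 498 and 291 CPM in pMSCV and at 272, 278 and 262 in SRF. SRF-FOXO1 was at 339, 322 and 457, SRF-ICA1L at 233, 335 and 237, SRF-RELA at 266, 338 and 241, and SRF-PDGFRB at 464 and 445 CPM. As with H2-D1, SRF was the only line without overlap with pMSCV. Over the 17 libraries it ran from 233 to 498 CPM.

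SRF was set against pMSCV to ask what added SRF changes. All 10 members had a lower mean in SRF, with a median log2 fold change of -0.62 against -0.02 over all genes. For H2-K1 the log2 fold change was -1.09 (standard error, SE, 0.20), for Nlrc5 it was -1.37 (SE 0.34), for H2-D1 -0.63 (SE 0.25), for B2m -0.53 (SE 0.21) and for Psmb10 -0.52 (SE 0.19). These 5 genes did not overlap between the groups, where 5.15% of all genes were lower without overlap. The pMSCV libraries are those of the contrasts known when the members were chosen, so this count is not independent of that choice. None of the 10 was called, which here means an adjusted p under 0.05 (quasi-likelihood test of edgeR, Benjamini-Hochberg adjustment over 15062 genes, of which 0.00664% were called). The edgeR adjusted p was 0.697 for H2-K1 and 0.990 for Nlrc5. At an unadjusted p under 0.05 the same 5 genes were lower (2.14% of all genes), and DESeq2 called 1 member, H2-K1, where it called 0.0266% of genes. The fit behind these edgeR values ignored replicate number, although pMSCV and SRF paired by number (correlations of 0.573, 0.392 and 0.609 over all genes). A replicate block in the 12 paired libraries described below called 0 of the 9 members tested. The share of all genes called with that block is not given here for this comparison. With that block the edgeR adjusted p was lower, at 0.0981 for H2-K1 and 0.161 for Nlrc5. The muscle markers were lower as well in SRF (723 to 1300 CPM in sum), and their part in the result was not tested.

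In SRF-FOXO1 the members split. Against pMSCV, H2-K1 (log2 fold change -0.91, SE 0.20), Nlrc5 (-1.34, SE 0.34) and Psmb10 (-0.59, SE 0.19) were lower without overlap, which 11.6% of all genes were, against the same pMSCV libraries. Their edgeR adjusted p values were 0.0501, 0.0620 and 0.112, so 0 of 10 members were called, where 0.710% of all genes were. At an unadjusted p under 0.05, 3 members were lower (10.6% of genes), and DESeq2 called the same 3 (9.07%). A replicate block in all 17 libraries called H2-K1 and Nlrc5, although same-numbered libraries of SRF-FOXO1 and pMSCV did not pair (correlations of 0.17, -0.195 and 0.0129 over all genes). H2-K1 stood at the threshold: its adjusted p was 0.0494 with DESeq2's size factors in edgeR and 0.0473 with a stricter filter on low counts. The shares of all genes called in these alternative edgeR fits are not given here, so nothing is read from their calls. The SRF-FOXO1 libraries also had a lower muscle marker sum than any pMSCV library. Their immune marker sum was higher (10.1 to 13.2 CPM against 4.01 to 7.58). Most of that rise was Lyz2 (mean 0.791 CPM in pMSCV and 6.87 in SRF-FOXO1). Csf1r (0.212 and 1.03) and Cd79a (0.209 and 0.306) had higher means too, and Cd68 had a lower one (4.27 and 3.53). The part of either sum in the results for this line was not tested.

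The peptide transporter and tapasin genes had higher means in SRF-FOXO1 than in pMSCV, but the groups overlapped. The log2 fold change was 1.23 (SE 0.86) for Tap1, 0.83 (SE 0.77) for Tap2 and 0.72 (SE 0.35) for Tapbp. The overlap came from pMSCV replicate 2 in Tap1, Tap2 and Tapbp alike. Without it the log2 fold changes were 2.24, 1.92 and 1.22. Without pMSCV replicate 3 that of Tap2 was 0.40, and without pMSCV replicate 1 it was 0.60.

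Tap1 and Tap2 separated the libraries by replicate number more than by line. Tap1 was at 1.61, 6.13 and 1.40 CPM in replicates 1, 2 and 3 of pMSCV, at 1.64, 3.66 and 0.741 in SRF, at 1.01, 7.55 and 1.24 in SRF-ICA1L and at 2.64, 10.0 and 2.70 in SRF-RELA. Tap2 was at 8.21, 26.0 and 3.69 CPM in pMSCV, at 4.82, 6.99 and 2.22 in SRF, at 4.67, 19.9 and 5.77 in SRF-ICA1L and at 6.12, 27.7 and 7.51 in SRF-RELA. Replicate 2 was the highest library of each of these 4 lines for both genes.

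Tapbp, whose product bridges the transporter and the heavy chain, also had its highest library in replicate 2: 51.7, 110 and 45.8 CPM in pMSCV, 58.1, 73.8 and 66.8 in SRF, 71.4, 114 and 68.4 in SRF-ICA1L, and 77.3, 121 and 68.7 in SRF-RELA. Psmb8 had 3, 21 and 1 counts in pMSCV, 1, 5 and 1 in SRF, 1, 23 and 2 in SRF-ICA1L, and 0, 26 and 3 in SRF-RELA. Psmb9 had 3, 7 and 0 counts in pMSCV, 1, 5 and 1 in SRF, 0, 13 and 3 in SRF-ICA1L, and 5, 10 and 1 in SRF-RELA. In each of these 4 lines both immunoproteasome genes had their highest count in replicate 2.

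Replicate number was tested in these 12 libraries, of which those with the same number deviate together from their group means over all genes. The lines were chosen for this pairing, seen in these same data, so the calls and adjusted p values below are descriptions. What a number stands for (a day, a passage or a batch) is not given in the sources used here. In edgeR's test of replicate number, with line in the fit, 6 of the 9 members tested were called, and 52.0% of all genes were, so a call here was common in the table as a whole. Psmb9 fell under the filter on low counts in this set. Between replicates 2 and 1 Tap1 differed by 1.96 on the log2 scale (edgeR adjusted p 0.000402), Tap2 by 1.61 (edgeR adjusted p 0.0011) and Psmb8 by 3.66 (edgeR adjusted p 0.00101). Tapbp differed by 0.71 (edgeR adjusted p 0.00376), H2-D1 by 0.49 (edgeR adjusted p 0.0331) and B2m by 0.32 (edgeR adjusted p 0.0201). H2-K1 (edgeR adjusted p 0.142), Psmb10 (0.434) and Nlrc5 (0.799) were not called.

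Replicate 2 was the highest library in all 4 lines for 6 of the 10 members (B2m, Tap1, Tap2, Tapbp, Psmb8 and Psmb9), an order seen in 14.0% of all genes. The lines were chosen for their pairing, so this order is a description too. The summed immune cell markers were also highest in replicate 2 of each of these lines (7.41 to 11.1 CPM). Of the 3 such markers tested with replicate number, 2 were higher in replicate 2 than in replicate 1. The part of these markers in the result was not tested.

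The share of variance in log2 CPM within the 12 libraries set H2-K1, Nlrc5 and Psmb10 apart from the transporter genes. Line held 80.3% for H2-K1, 78.1% for Nlrc5 and 73.5% for Psmb10, with 8.71%, 2.37% and 10.4% for replicate number. For Psmb8, Tap1, Tap2, Psmb9 and Tapbp the order was the opposite, with 63.9% to 80.4% for replicate number and 6.83% to 22.9% for line. B2m (48.4% line, 37.8% replicate number) and H2-D1 (41.6% and 35.4%) lay between. The medians over all genes were 19.5% for line and 49.6% for replicate number, and unrelated terms would give 27.3% and 18.2%. Line includes pMSCV against SRF-ICA1L and SRF-RELA, comparisons known when the members were chosen, so these shares are a description.

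**Figure D2:**
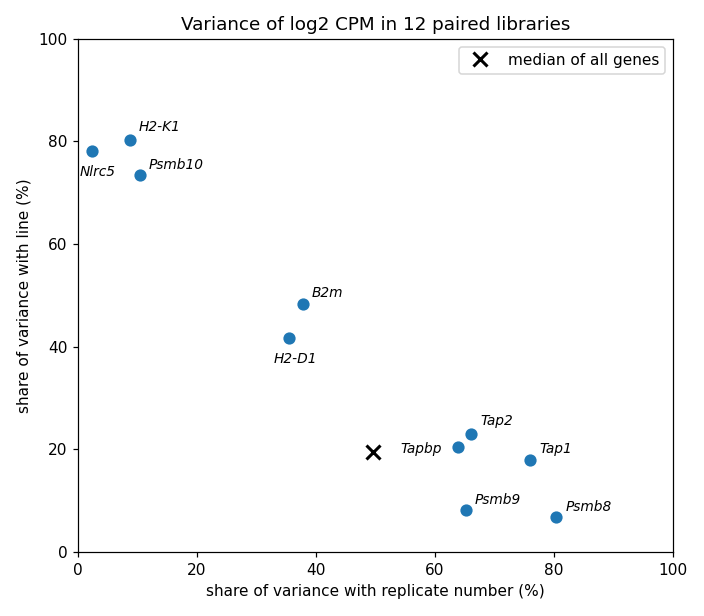
Share of the variance of each gene's log2 CPM held by replicate number (x axis, percent) and by line (y axis, percent) in the 12 libraries of SRF, SRF-ICA1L, SRF-RELA and pMSCV, 1 point a gene, with a cross at the medians of all genes. H2-K1, Nlrc5 and Psmb10 lie at the upper left (73.5% to 80.3% line) and Tap1, Tap2, Tapbp, Psmb8 and Psmb9 at the lower right (63.9% to 80.4% replicate number).

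In SRF-FOXO1 the transporter genes stood above all SRF libraries in each of the 3 replicates, and Tap2 had no peak in replicate 2. Tap1 was at 5.62, 8.53 and 7.40 CPM there, Tap2 at 25.0, 19.1 and 23.4, and Tapbp at 141, 69.0 and 132. Psmb8 had 16, 23 and 11 counts and Psmb9 had 6, 18 and 6. The 3 Tap2 values lay above the highest SRF library (6.99 CPM) and below the replicate 2 libraries of pMSCV and SRF-RELA.

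Against SRF, 9 of the 10 members had a higher mean in SRF-FOXO1 (median log2 fold change 0.69, against 0.01 over all genes). Without overlap, 6 members were higher, where 17.1% of all genes were. The log2 fold change was 2.27 (SE 0.81) for Tap2, 1.84 (SE 0.88) for Tap1, 2.78 (SE 1.39) for Psmb8, 2.06 (SE 1.16) for Psmb9, 0.59 (SE 0.25) for H2-D1 and 0.46 (SE 0.21) for B2m. Tapbp differed by 0.78 (SE 0.35) with overlap, since SRF-FOXO1 replicate 2 (69.0 CPM) lay within the SRF range of 58.1 to 73.8. None of the 10 was called by edgeR (0.00664% of all genes were), the lowest adjusted p being 0.201 for Tap2. At an unadjusted p under 0.05, 4 members were higher (H2-D1, B2m, Tap2 and Tapbp, where 11.1% of genes were), and DESeq2 called 0 (4.30% of genes). In a fit of these 2 groups alone, 1 member was called, Tap2 (log2 fold change 2.29, edgeR adjusted p 0.0436). The share of all genes called in that fit is not given here, so nothing is read from the call. H2-K1 differed by 0.18 between these lines (95% interval -0.25 to 0.61).

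**Figure D3:**
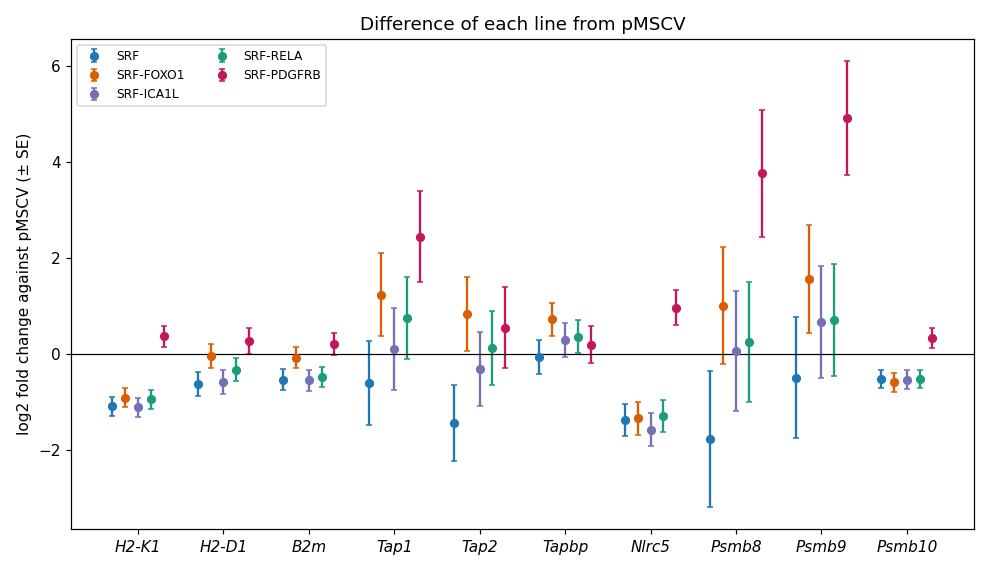
Log2 fold change of each gene against pMSCV (y axis) for each of the 5 other lines, from edgeR, with bars of 1 SE to either side. H2-K1, Nlrc5 and Psmb10 lie below 0 against pMSCV in every line but SRF-PDGFRB. So do H2-D1 and B2m, which lie near 0 in SRF-FOXO1 (-0.041 and -0.075). The widest bars belong to Psmb8, Psmb9, Tap1 and Tap2.

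SRF-ICA1L and SRF-RELA were each set against SRF. In neither comparison was a member called by edgeR (0 of 10, with 0 and 0.00664% of all genes called), none passed an unadjusted p under 0.05 (1.56% and 3.21% of genes did), and DESeq2 called 0 members (0.0133% and 0.0599% of genes). For H2-K1 the log2 fold change was -0.02 in SRF-ICA1L (95% interval -0.45 to 0.41) and 0.15 in SRF-RELA (95% interval -0.28 to 0.58). Neither interval reached the size of the log2 fold change of SRF against pMSCV (-1.09), in either direction. That fold change and the intervals rest on the same SRF libraries. The low H2-K1 levels of SRF-ICA1L and SRF-RELA were known when the members were chosen, so this is a description. For the transporter, Tap2 differed by 1.11 (SE 0.79) in SRF-ICA1L and by 1.56 (SE 0.79) in SRF-RELA, and Tap1 by 1.35 (SE 0.87) in SRF-RELA. These values rested on replicate 2: without SRF-ICA1L replicate 2 the first was 0.16, and without SRF-RELA replicate 2 the others were 0.54 and 0.41. Without SRF replicate 2, Tap1 in SRF-RELA was at 2.11. The errors were smaller with the replicate numbers paired, at 1.36 (SE 0.34) for Tap2 and 1.31 (SE 0.31) for Tap1 in SRF-RELA, where each same-numbered pair had the higher value in SRF-RELA. With this block neither was called (edgeR adjusted p 0.103 and 0.0867), nor was Tap2 in SRF-ICA1L (0.93, SE 0.34, edgeR adjusted p 0.447).

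Against pMSCV, which all 5 of these comparisons share as control, the 2 lines had lower H2-K1 (log2 fold changes -1.11 and -0.94), Nlrc5 (-1.58 and -1.29) and Psmb10 (-0.53 and -0.52). The muscle marker sum also lay wholly below pMSCV in SRF-ICA1L (458 to 1070 CPM) and SRF-RELA (382 to 704 CPM), and its part was not tested. Each line had 3 members below pMSCV without overlap, where 5.54% of all genes were in SRF-ICA1L and 5.91% in SRF-RELA. edgeR called no member in either (0% of all genes called in both), and 5 and 4 members were lower at an unadjusted p under 0.05 (3.27% and 4.17% of genes). A replicate block in the 12 paired libraries called 2 of 9 members in each line (2.99% and 6.48% of all genes), and DESeq2 called 2 in each (0.318% and 0.770%). The 2 were H2-K1 and Nlrc5 in all 4 cases. These are the contrasts known when the members were chosen, and nothing is read from the counts.

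SRF-PDGFRB stood at or near the top for most members. Psmb8 had 120 and 107 counts in its 2 libraries and at most 26 elsewhere, and Psmb9 had 141 and 66 and at most 18 elsewhere. Against pMSCV the log2 fold change was 4.91 (SE 1.18) for Psmb9, 3.76 (SE 1.32) for Psmb8, 2.45 (SE 0.94) for Tap1 and 0.97 (SE 0.37) for Nlrc5. It was smaller for Tap2 (0.55, SE 0.85), H2-K1 (0.37, SE 0.22) and Psmb10 (0.34, SE 0.21).

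All 10 members had a higher mean in SRF-PDGFRB than in pMSCV, and 6 did not overlap (8.67% of all genes were higher without overlap). edgeR called 0 of them (0.0199% of all genes), 4 were higher at an unadjusted p under 0.05 (4.59%) and DESeq2 called 1, Psmb9 (0.475%). Against SRF all 10 were higher without overlap (13.0% of all genes were), with a median log2 fold change of 1.72. The values ran from 0.26 (SE 0.39) for Tapbp to 5.53 (SE 1.48) for Psmb8, with 1.46 (SE 0.22) for H2-K1 and 2.34 (SE 0.37) for Nlrc5. edgeR called H2-K1 and Nlrc5 against SRF (0.0531% of all genes were called), and both calls were lost when any 1 of the 5 libraries was left out and in a fit of the 2 groups alone. With all libraries, 9 members were higher at an unadjusted p under 0.05 (3.52%), and DESeq2 called 5 (0.386%). The SRF-PDGFRB values helped to choose the members, so nothing is read from these counts.

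The 2 SRF-PDGFRB libraries were unlike each other in the transporter. Tap1 was at 25.1 CPM in replicate 1 and 8.23 in replicate 2, and Tap2 at 27.6 and 9.39. H2-D1 (77.1 and 71.7), B2m (464 and 445) and Tapbp (83.2 and 75.1) were close. Psmb10 was the exception in direction, at 11.3 and 14.2. Replicate 1 was also the library with the lower muscle marker sum (231 against 2070 CPM) and the higher immune marker sum (12.2 against 2.58 CPM), and their part in the result was not tested. Without replicate 1, the log2 fold change of Tap2 against pMSCV was -0.45.

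Transcripts of the catalytic subunits were compared as counts of the immunoproteasome gene per 100 counts of its constitutive counterpart in the same library. These are ratios of RNA counts, not adjusted for transcript length, and the exchange of the proteins was not measured. For Psmb8 over Psmb5 the SRF-PDGFRB libraries stood at 8.31 and 7.17, and all others at 1.96 or less. For Psmb9 over Psmb6 they stood at 6.15 and 2.04, and all others at 0.755 or less. For Psmb10 over Psmb7 the ratio was higher in every library, from 5.65 in SRF-ICA1L replicate 1 to 17.7 in SRF-PDGFRB replicate 2. In pMSCV it was 11.8, 14.4 and 11.4, and pMSCV replicate 2 lay above SRF-PDGFRB replicate 1 (14.3).

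**Figure D4:**
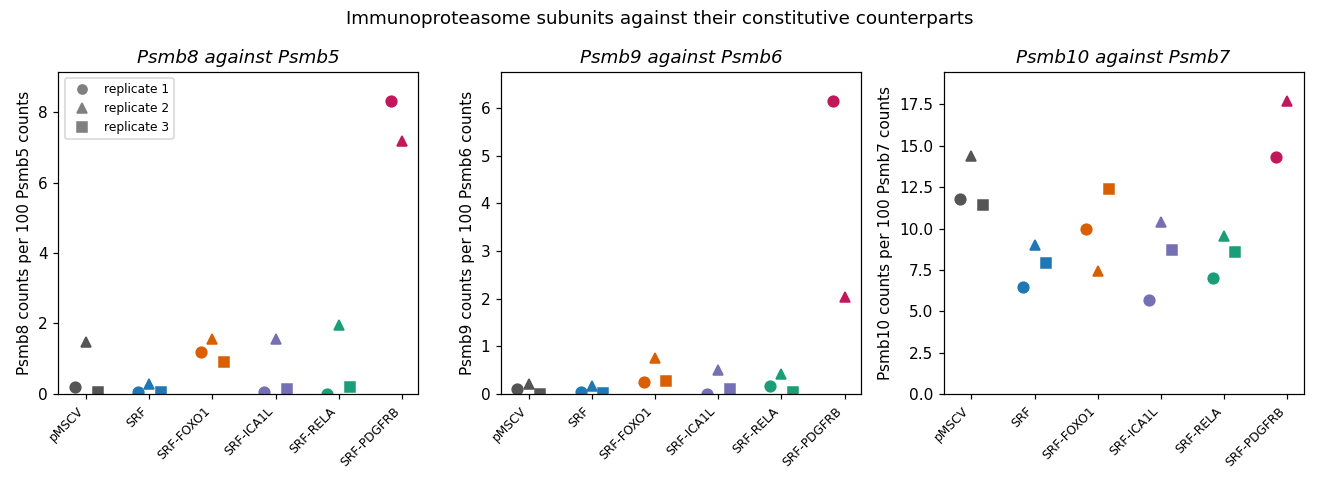
Counts of Psmb8, Psmb9 and Psmb10 per 100 counts of Psmb5, Psmb6 and Psmb7 in each of the 17 libraries, by line (x axis), with marker shapes for the replicate number. For Psmb8 and Psmb9 the 2 SRF-PDGFRB libraries lie above all others, and Psmb10 is above 5 per 100 in every library.

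Other genes of the pathway were followed as lists chosen by function. In the 5 comparisons given a test, the only called gene of the 7 pathway lists was Jak2, a kinase of interferon receptors, which rose in SRF-FOXO1 against pMSCV (log2 fold change 1.15, SE 0.21, edgeR adjusted p 0.0336). Of the regulators, Irf1 differed there by 0.24 (SE 0.51). Erap1, which trims peptides, differed by 0.71 (SE 0.23) and the chaperone Calr by 0.91 (SE 0.33), and neither was called. Psmb6 differed by -0.59 (SE 0.16, edgeR adjusted p 0.0757). Ciita, the class II transactivator, Ifnb1 and Ifng had no row.

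With replicate number, 9 of 12 other class I heavy chains and B2m partners were called, 8 of them higher in replicate 2 than in replicate 1 (H2-T22, H2-T23, H2-Q1, H2-Q4, Cd1d1, Mr1, Fcgrt and Hfe), and H2-K2 lower. The median difference of the list was 0.88 on the log2 scale. The regulators Irf1 (1.37) and Rfx5 (0.95) and the proteasome activator genes Psme1 (0.63) and Psme2 (0.57) were also called and higher in replicate 2. Their lists as a whole went both ways. Of the 13 regulators, 4 were called higher and 3 lower, with a median of 0.09. Of the 9 proteasome activator and assembly genes, 2 were called higher and 5 lower, with a median of -0.24. Of the 14 constitutive 20S subunits, 9 were called and all 9 were lower, with a median of -0.35, and 5 of 11 loading and trimming genes were called, all lower. Of the 9 interferon receptor and signalling genes, 6 were called higher and 0 lower, with a median of 0.49. Of the 3 MHC class II genes with a row, 2 were called higher and 0 lower, with a median of 1.69. These counts stand beside the 52.0% of all genes called, in lines chosen for their pairing.

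The genes whose pattern was most like the members' were found by Pearson correlation with the mean standardized log2 CPM of the members over the 17 libraries, among 11942 genes. They were Parp14 (0.930), Irgm2 (0.917), Bst2 (0.917), Ube2l6 (0.917), Irf7 (0.908), Ifit3b (0.907), Igtp (0.904), Oasl2 (0.904), Nbr1 (0.901) and Phf11d (0.890). Without the 2 SRF-PDGFRB libraries their correlations ran from 0.804 (Phf11d) to 0.934 (Ube2l6). The mean of the members does not follow each of them. It was 0.26, 0.11 and 0.48 in SRF-FOXO1 replicates 1, 2 and 3, where H2-K1, Nlrc5 and Psmb10 lay below pMSCV. The libraries share lines and replicate numbers, so the correlations are descriptions.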

How the data were processed

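RNA was extracted from the cells of the 17 samples, treated with DNase, and made into libraries with a stranded kit for polyadenylated RNA, per the labels' protocols. Per the submitters' processing notes, FastQC 0.11.8, Trimmomatic 0.39, HISAT2, featureCounts and Subread 2.0.0 were used with GRCm38. The values used were raw counts per gene that the authors deposited. Each row had at least 10 counts in 3 or more libraries, and genes found in SRF-PDGFRB alone would thus be missing. Of 1531 rows with no symbol, 1519 received one by gene identifier from a table of gene names.

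Counts were tested with edgeR 4.0.16 (limma 3.58.1, R 4.3.3): TMM scaling, robust quasi-likelihood fits of all 17 libraries with a term for group, and Benjamini-Hochberg adjustment over the 15062 genes in each comparison. edgeR's own low-count filter removed 0 genes. The biological coefficient of variation was 36.5%. An SE is the log2 fold change divided by the square root of the F statistic. The log2 CPM values have a prior count of 2. DESeq2 1.42.0, its size factors in edgeR, a stricter filter (mean of at least 1 CPM), fits of 2 groups alone, leaving out each library, and a replicate block were alternatives. The scripts were tested on simulated counts.

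Same-numbered libraries of SRF, SRF-ICA1L, SRF-RELA and pMSCV correlated at 0.392 to 0.789 in their deviations from the group means, and others at 0.114 at most. SRF and SRF-FOXO1 paired at 0.220 to 0.330, and pMSCV and SRF-FOXO1 did not pair. The pairing comes from these correlations, not from the labels. The members and lists were chosen with earlier results of these data known. The named genes were the members, the called genes of the lists, a set of list genes taken whatever their values, and the 10 genes most like the members among those with a symbol and a mean of at least 1 CPM. A gene of that set is not reported here. Promoter motifs were searched in RefSeq promoters of GRCm38.p6. Transcript stretches of 50 bases were taken from GENCODE transcripts.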

Additional observations from a re-analysis of the deposited data

How the results depend on the processing

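Against pMSCV, DESeq2 called 1 member for SRF, 3 for SRF-FOXO1, 2 for SRF-ICA1L, 2 for SRF-RELA and 1 for SRF-PDGFRB, where edgeR called 0. For SRF-PDGFRB against SRF it called 5, where edgeR called 2. In SRF-FOXO1 against pMSCV, edgeR called 1 member with DESeq2's size factors, 1 with the stricter filter and 2 with a replicate block in all 17 libraries. The replicate block in the 12 paired libraries gave 2 called members in SRF-ICA1L and 2 in SRF-RELA against pMSCV. Fits of 2 groups alone called 1 member in SRF-FOXO1 against SRF and 0 in SRF-PDGFRB against SRF. Leaving out any 1 of the 5 libraries of SRF-PDGFRB and SRF called 0 members between them. A lone SRF-PDGFRB library was assumed to vary like the other groups. Apart from the replicate block for SRF-ICA1L and SRF-RELA against pMSCV, the share of all genes called in the alternative edgeR fits is not given here. Their counts of called members therefore cannot be weighed. The cause of the moves between settings was not tested.

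Of 756 alternatives over 59 results for single members, 701 kept direction and call, 23 lost a call, 22 gained one and 10 turned in direction. Calls in the main fits were 2 in SRF-PDGFRB against SRF and 6 with replicate number, so most of the 59 results had no call to lose. For those results, keeping the call meant staying uncalled. The 10 that turned in direction belong to 5 results. Without replicate 1 of SRF-PDGFRB, the Tap2 change against pMSCV was -0.45 (leave-one-out range -0.45 to 1.62). The H2-K1 change ran from -0.15 to 0.14 in SRF-ICA1L and from -0.01 to 0.31 in SRF-RELA against SRF. Between replicates 2 and 1, H2-K1 ran from -0.19 to 0.07 and Nlrc5 from -0.05 to 0.37. The replicate call of H2-D1 was lost in 8 leave-outs (edgeR adjusted p up to 0.132) and that of B2m in 3 (up to 0.0811). For Psmb8 and Psmb9, counts of 26 or fewer outside SRF-PDGFRB limit the precision.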
